A study of Mus musculus with 3 samples.

Results

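The genes described here encode the receptors for the myeloid growth factors: Csf3r for G-CSF, Csf2ra with Csf2rb and the related Csf2rb2 for GM-CSF and its sister cytokines, Csf1r for M-CSF, and Kit for stem cell factor. They were taken by gene symbol, and all 6 were among the 11419 genes of the deposited tables. Expression was measured by sequencing of messenger RNA in 3 libraries of 1 sorted population, from hind limb bone marrow of C57BL/6 mice, an inbred strain, with no treatment and no engineered allele named in the labels. The gate took cells carrying CD11b, F4/80 and CD169 and lacking CX3CR1, and the design text writes macrophages for them between quotation marks. There was no other population to compare with, and age and sex were not given. Nothing in the labels ties the libraries to separate mice. The p-values therefore rest on the spread between libraries, in part pooled over genes, and that spread may be technical.

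Growth factor receptors of the marrow fall into a pair of classes. The receptors for G-CSF and GM-CSF have no kinase of their own and signal through JAK kinases and STAT factors, whereas the receptors for M-CSF and stem cell factor are receptor tyrosine kinases. G-CSF drives the production of neutrophils, M-CSF that of monocytes and macrophages, GM-CSF acts on granulocytes and macrophages alike, and stem cell factor supports stem cells, progenitors and mast cells.

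The gate and the label were checked against their markers. Of the genes of the sorted surface proteins, Itgam (CD11b) was at 503 ± 55.1 CPM and Adgre1 (F4/80) at 22.2 ± 3.97 (SD, n = 3 libraries). Siglec1 (CD169) had 2, 147 and 172 reads in replicates 1, 2 and 3 (2.87 ± 2.20 CPM), and Cx3cr1 had 17 reads in replicate 2 and 0 in the others, which allows up to 0.583 and 0.0798 CPM there. All 11 late neutrophil markers (S100a8, S100a9 and Ngp the most abundant) were above 10 CPM by limma, as were 4 of 13 macrophage markers, with 7 below. Among all genes tested, 58.8% were above and 28.3% below. Without the minimum on reads 2 macrophage markers were above. The macrophage identity of the label is therefore not used below. In a bulk sample, fewer cells of a type and less RNA per cell cannot be told apart.

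CPM is the number of reads of a gene per 1000000 reads assigned to the listed genes. Replicate 1 had 5150020 such reads, against 40149274 for replicate 2 and 37604930 for replicate 3, so that 10 CPM stood for 51.5, 401 and 376 reads. Exact binomial 95% intervals are given per library and hold for counting error alone, because amplified reads carrying no molecular identifier may stem from 1 molecule. All 6 receptor genes passed the minimum of 10 reads and were called above 10 CPM by limma at an adjusted p under 0.05. The SE and p-values of limma are moderated, so they draw in part on the spread of all genes tested. Of the 11123 genes tested, 58.8% were called above and 28.3% below that level. The median of the receptor genes was 169 CPM, and that of all genes tested was 20.9 CPM.

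**Figure D1:**
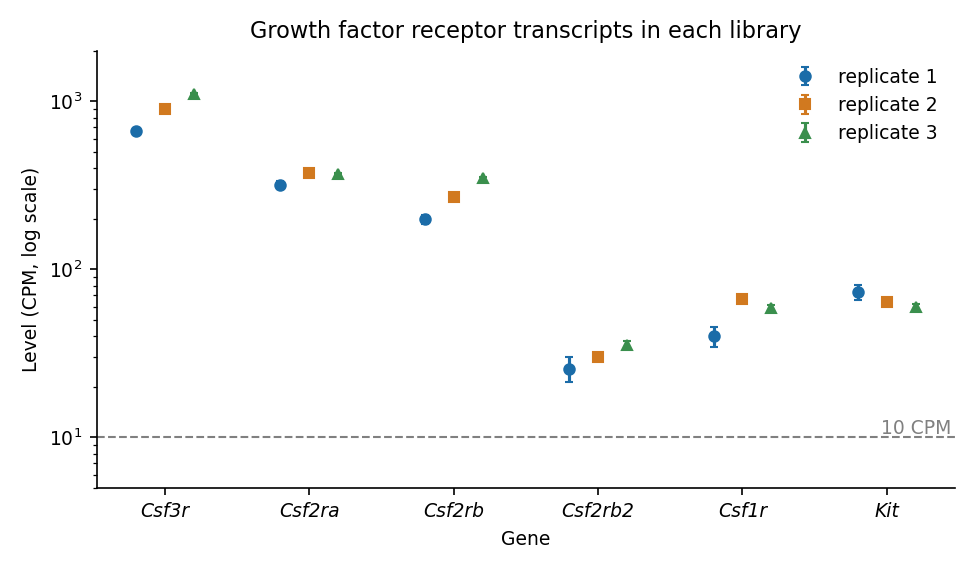
Level of each receptor gene in the 3 libraries, in CPM on a log axis, with exact binomial 95% intervals as bars (hidden by the point where narrow) and 10 CPM as a dashed line. Every point lies above the line, from 25.4 CPM for Csf2rb2 in replicate 1 to 1111 CPM for Csf3r in replicate 3.

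Csf3r, whose product is the receptor of G-CSF and acts as a homodimer, was at 667 CPM in replicate 1 (95% interval 645 to 689), 905 in replicate 2 (895 to 914) and 1111 in replicate 3 (1101 to 1122). Replicate 1 was the lowest and replicate 3 the highest, and no pair of intervals overlapped. The mean was 894 ± 223 CPM (SD, n = 3), a log2 difference from 10 CPM of 6.32 (SE 0.12, limma adjusted p = 3.00e-22). That p depends on the moderation. The limma adjusted p was 1.65e-06 with no trend of spread on level, and 3.83e-05 without the minimum on reads. Among all genes Csf3r ranked 157, 106 and 78 by CPM in replicates 1, 2 and 3. Per length, 98.0%, 98.7% and 99.0% of genes were lower. The gene lies at chr4:126024550-126044440 on the plus strand of GRCm38, with 17 exons and 2511 coding bases. Here and below, 75-base windows come from 1 transcript per gene, the one with the longest coding sequence, and can leave out other exons. Of those of Csf3r, 3.40% also occur in transcripts of other genes.

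The GM-CSF receptor is built from a ligand-binding alpha chain, Csf2ra, and a signalling beta chain, Csf2rb, which the mouse also uses for IL-3 and IL-5. Csf2ra was at 318 CPM in replicate 1 (95% interval 302 to 333), 376 in replicate 2 (370 to 382) and 369 in replicate 3 (363 to 375). Replicate 1 was lowest, and the intervals of replicates 2 and 3 overlapped. The mean was 354 ± 31.8 CPM (SD, n = 3), a log2 difference from 10 CPM of 5.01 (SE 0.11, limma adjusted p = 2.25e-21). The highest library was 1.18 times the lowest, the narrowest range among the receptor genes. Csf2ra lies at chr19:61223957-61228429 on the minus strand, with 12 exons, and the transcript searched shared no 75-base window with another gene.

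Csf2rb was at 199 CPM in replicate 1 (95% interval 187 to 211), 269 in replicate 2 (264 to 274) and 348 in replicate 3 (342 to 354). The intervals did not overlap, replicate 1 was again lowest and replicate 3 highest, and the highest library was 1.75 times the lowest, the widest range among the receptor genes on library totals. With edgeR's TMM factors that ratio was 1.60 for Csf2rb and 1.67 for Csf1r, and with DESeq2's size factors 1.58 and 1.65, so that Csf1r then had the widest range. The mean was 272 ± 74.8 CPM (SD, n = 3), a log2 difference from 10 CPM of 4.60 (SE 0.13, limma adjusted p = 2.73e-19). Csf2rb lies at chr15:78325752-78353847 on the plus strand, with 15 exons and 2688 coding bases.

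Csf2rb2, its neighbour on the opposite strand at chr15:78282507-78305721, encodes the beta chain that serves IL-3 alone. It was at 25.4 CPM in replicate 1 (95% interval 21.3 to 30.2), 30.01 in replicate 2 (28.3 to 31.8) and 35.7 in replicate 3 (33.8 to 37.6). The order of the libraries was that of Csf2rb, but the intervals of replicates 1 and 2 overlapped. The mean was 30.4 ± 5.12 CPM (SD, n = 3), a log2 difference from 10 CPM of 1.499 (SE 0.16, limma adjusted p = 1.91e-08).

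Both beta chain genes have nearly the same coding sequence, which bears on how far their reads can be told apart. Of 2628 aligned coding positions, 2503 (95.2%) were identical and 125 differed. Of the 75-base windows along the transcript searched for each gene, 10.7% of those of Csf2rb and 11.1% of those of Csf2rb2 occur in the other gene. Read length and the treatment of reads with several matches are not given in the sources used here, so the split of reads between the pair is uncertain. The longest identical stretch has 242 bases at coding positions 2083 to 2324 of each gene (Csf2rb chr15:78348577-78348818, Csf2rb2 chr15:78284630-78284871, GENCODE transcripts of GRCm38). A read inside it matches both genes:
Csf2rb and Csf2rb2: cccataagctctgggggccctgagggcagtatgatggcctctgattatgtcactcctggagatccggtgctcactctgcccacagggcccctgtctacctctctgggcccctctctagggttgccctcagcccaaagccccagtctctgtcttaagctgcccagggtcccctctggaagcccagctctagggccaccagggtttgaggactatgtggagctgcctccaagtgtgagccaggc
The most different stretch of 90 bases, with 16 differing bases (82.2% identical), starts at coding position 308 of Csf2rb (chr15:78338897-78338986, plus strand) and 311 of Csf2rb2 (chr15:78294345-78294434, minus strand). Capitals mark the bases that differ:
Csf2rb: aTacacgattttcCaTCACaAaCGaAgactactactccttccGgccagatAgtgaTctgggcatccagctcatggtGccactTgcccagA
Csf2rb2: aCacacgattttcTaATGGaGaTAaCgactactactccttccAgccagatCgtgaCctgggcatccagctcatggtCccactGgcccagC
Reads over the capitals differ between the genes, and reads within the identical stretch do not.

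**Figure D2:**
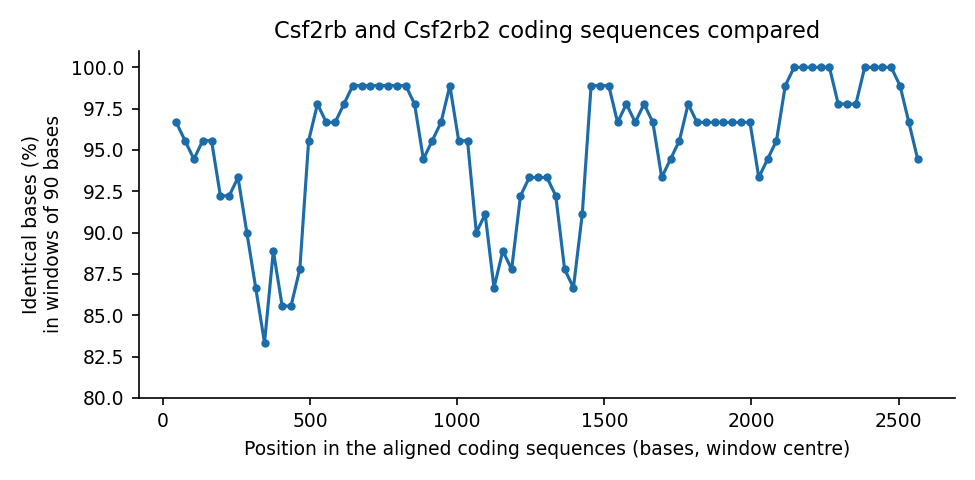
Percent of identical bases between the Csf2rb and Csf2rb2 coding sequences in windows of 90 bases, moved by 30 bases, against the window centre in bases of the alignment. Of 85 windows, 11 fall under 90%, the lowest at 83.3%, and windows near the 3′ end reach 100%.

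Per kb of exon, Csf2rb had 5.09, 5.84 and 6.36 times the level of Csf2rb2 in replicates 1, 2 and 3 (5.76 ± 0.640, SD, n = 3), so the common beta chain was the higher in each library; with no length the ratio was 8.85 ± 0.983. Between the chains of the GM-CSF receptor, the alpha chain was the higher per kb in each library, at 4.05, 3.54 and 2.68 times the level of Csf2rb. With no length it was at 1.60, 1.40 and 1.06 times. The beta chains also serve Il3ra and Il5ra, the alpha chains for IL-3 and IL-5. With these counted, both beta chains together were at 0.255, 0.299 and 0.395 of the summed alpha chains per kb (0.316 ± 0.0717). With no length they were at 0.605, 0.717 and 0.949 (0.757 ± 0.176), so the size of this ratio rests on the length used. These are ratios of transcripts and hold no measure of protein.

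Csf1r, the M-CSF receptor and a defining gene of monocytes and macrophages, was at 39.8 CPM in replicate 1 (95% interval 34.5 to 45.6), 66.6 in replicate 2 (64.1 to 69.2) and 59.0 in replicate 3 (56.6 to 61.5). Replicate 1 was lowest and replicate 2 highest, and no pair of intervals overlapped. The mean was 55.1 ± 13.8 CPM (SD, n = 3), a log2 difference from 10 CPM of 2.32 (SE 0.15, limma adjusted p = 2.41e-12). Csf1r lies at chr18:61100598-61132149 on the plus strand, with 21 exons. The gene Hmgxb3 overlaps it on the opposite strand and holds 17.3% of its 75-base windows. Hmgxb3 was at 11.8, 15.1 and 11.4 CPM, and since the strand setting of the counting is not given in the sources used here, reads from the overlap cannot be assigned to either gene. The summed macrophage markers were at 229, 169 and 200 CPM in replicates 1, 2 and 3, and the summed monocyte markers at 1166, 1050 and 950 CPM. Both sums were highest in replicate 1, the library where Csf1r was lowest. Ly6c2 made up most of the monocyte sum, and without it the other 5 monocyte markers summed to 25.0, 32.5 and 17.7 CPM, highest in replicate 2, where Csf1r was highest.

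Kit, the receptor of stem cell factor, was at 73.0 CPM in replicate 1 (95% interval 65.8 to 80.8), 64.0 in replicate 2 (61.6 to 66.5) and 59.8 in replicate 3 (57.4 to 62.4). The interval of replicate 2 overlapped both others, while those of replicates 1 and 3 did not overlap. The mean was 65.6 ± 6.73 CPM (SD, n = 3), a log2 difference from 10 CPM of 2.59 (SE 0.13, limma adjusted p = 2.49e-14). Kit lies at chr5:75574916-75656722 on the plus strand, with 21 exons, and the transcript searched shared no 75-base window with another gene.

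Kit marks several cell types, and their other markers did not all move with it. Of the 4 stem and progenitor markers listed, 0 were above 10 CPM and 3 were below, with Meis1 at 1.37 ± 1.08 and Ly6a at 2.90 ± 1.03 CPM, and none was at 0 in all libraries. Their sum was 19.6, 13.3 and 15.9 CPM in replicates 1, 2 and 3. Of 9 basophil and mast cell markers 5 were listed, and the levels of the other 4 are unknown. Of the 5 listed, 4 (80%) were above 10 CPM. Among all genes tested, 58.8% were called above that level and 28.3% below. The 5 listed markers summed to 1471, 733 and 809 CPM. Prss34, a basophil protease, was at 596, 74.5 and 81.2 CPM, and 4 of the 5 markers were highest in replicate 1. The most abundant, Hdc, the histamine-forming enzyme, was lowest there, at 552, 609 and 675 CPM. Without Hdc the listed markers summed to 919, 124 and 134 CPM. The basophil and mast cell sum and Kit were both highest in replicate 1, where Kit was 1.22 times its lowest value. The part of these cells in the level of Kit was not tested. All 6 primary granule markers, which granulocyte precursors carry, were also highest in replicate 1, with a sum of 8457, 6542 and 7137 CPM.

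Levels of different genes were set side by side per kb of exon. On that scale Csf3r was at 248 ± 61.7 CPM per kb, Csf2ra at 123 ± 11.1, Csf2rb at 37.4 ± 10.3, Csf1r at 9.55 ± 2.39, Kit at 7.36 ± 0.756 and Csf2rb2 at 6.41 ± 1.08 (SD, n = 3). The G-CSF receptor thus stood first and the GM-CSF receptor chains next, with the tyrosine kinase receptors and the IL-3 beta chain last. The median was 23.5 CPM per kb for the receptor genes and 4.37 for all genes with a length.

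Each step among the first 4 genes kept its direction in all 3 libraries. Csf3r was 1.97-fold above Csf2ra (log2 0.98 ± 0.26), Csf2ra 3.38-fold above Csf2rb (1.76 ± 0.30) and Csf2rb 3.90-fold above Csf1r (1.96 ± 0.27). Each difference gave p = 0.25 in an exact permutation test by sign flips (two-sided), the smallest p that 3 libraries allow (0.288 adjusted over 15 pairs). The design cannot reach p under 0.05. The size of some steps rests on the length used: with no length, the log2 ratio of Csf2ra to Csf2rb was 0.41, while with the longest transcript it was 1.52.

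The lower 3 genes could not be fully ordered. Csf1r over Kit was a log2 ratio of -0.25 in replicate 1, 0.68 in replicate 2 and 0.61 in replicate 3 (0.35 ± 0.52, exact sign-flip permutation p = 0.5, adjusted 0.5). Kit over Csf2rb2 was 0.61, 0.18 and -0.16 (0.21 ± 0.39, exact sign-flip permutation p = 0.5, adjusted 0.5). Both differences were smaller than their spread. With the longest transcript in place of all exons, Csf1r over Kit turned to -0.12, and with no length to -0.28, while Kit over Csf2rb2 was 0.98 and 1.12. Of all 15 pairs, 13 had one sign in every library, among them Csf1r over Csf2rb2, at 0.56 ± 0.27.

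**Figure D3:**
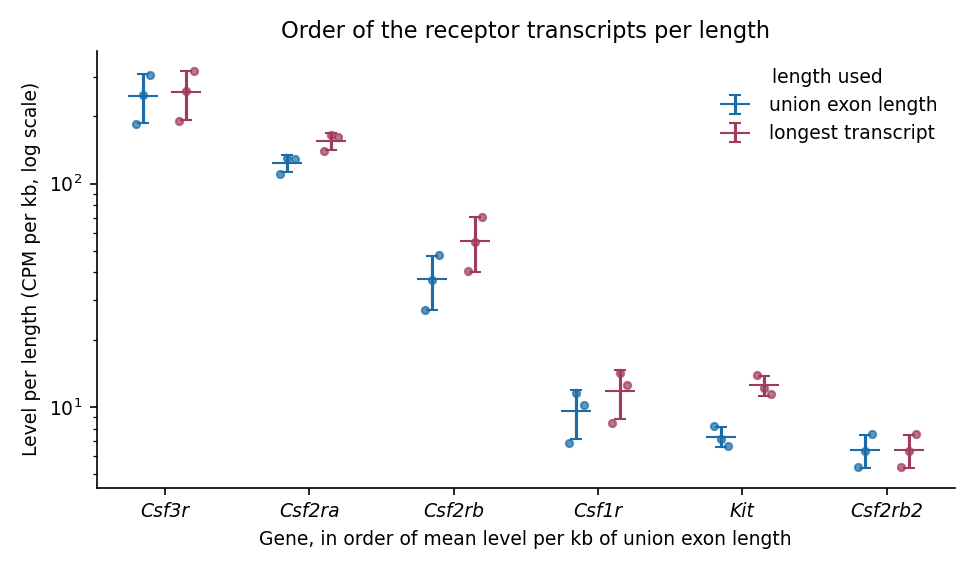
Level of each receptor gene per kb, on a log axis, with union exon length and with the longest transcript as the length; points are the 3 libraries, and bars give the mean and SD. Csf3r, Csf2ra and Csf2rb stand apart in that order on both lengths, and Kit and Csf1r change places.

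Across lineages, the G-CSF receptor was far above the M-CSF receptor in each library. Csf3r had 26.8, 21.7 and 30.1 times the level of Csf1r per kb (26.2 ± 4.24). Csf2ra had 16.0, 11.4 and 12.6 times that of Csf1r. With no length these ratios were 16.4 ± 2.65 and 6.63 ± 1.21. The ratio of Csf3r to Kit varied more, at 22.6, 34.9 and 45.9, lowest in the library with the most Kit, and with no length it was 13.9 ± 4.72.

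Together the receptor genes took 1321, 1710 and 1983 CPM, or 0.167 ± 0.0332% of reads. The sum was lowest in replicate 1 and highest in replicate 3. With each gene taken per kb, the share of Csf3r was 57.0 ± 3.37%, that of Csf2ra 29.0 ± 3.53% and that of Csf2rb 8.57 ± 0.752%. Csf1r made up 2.21 ± 0.342%, Kit 1.78 ± 0.551% and Csf2rb2 1.49 ± 0.0689%. The share of Kit varied most for its size, from 1.32% in replicate 3 to 2.39% in replicate 1.

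Of the receptor genes, 5 were lowest in replicate 1 and 1, Kit, was highest there. Among the 7283 tested genes whose mean reached 10 CPM, 47.0% were lowest and 29.4% highest in replicate 1, the library with the fewest reads. The counts of 5 and 1 held when CPM was rescaled by edgeR's TMM factors or DESeq2's size factors. The part of depth was not tested.

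The spread of single receptors was set against that of the same 7283 genes, whose median coefficient of variation was 15.6%. Csf2rb (27.5%), Csf1r (25.0%) and Csf3r (24.9%) varied more than 84.7%, 79.8% and 79.5% of these genes. Csf2rb2 (16.9%) lay near the middle. Kit (10.3%) and Csf2ra (8.97%) varied more than only 27.0% and 21.7% of them. These values hold for library totals, and the order of Kit and Csf2rb2 depended on the scaling. On library totals the highest library was 1.22 times the lowest for Kit and 1.40 times for Csf2rb2. With edgeR's TMM factors these ratios were 1.34 and 1.28, and with DESeq2's size factors 1.35 and 1.26. The chains of 1 receptor, Csf2ra and Csf2rb, thus differed in how much they varied over the libraries.

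Markers of granulocyte types varied too. The eosinophil sum was 537, 883 and 1299 CPM in replicates 1, 2 and 3, and each of its 6 markers was lowest in replicate 1. Prg2, an eosinophil granule protein, was at 316, 494 and 722 CPM, and Epx, the eosinophil peroxidase, at 66.4, 122 and 275. Csf3r, Csf2rb and Csf2rb2 had the same order of libraries as this sum. That order was not particular to eosinophil markers. Of the pathway lists described below, 13 of 23 adaptors and kinases, 9 of 16 negative regulators and 3 of 20 transcription factors had it. So did 5 of 9 JAK and STAT genes, 5 of 13 other cytokine receptors, 4 of 11 STAT response genes and 0 of 2 ligands. The share of all genes tested with this order was not counted, so these counts have no background to be read against. Csf2rb also serves the IL-5 receptor, whose alpha chain Il5ra, an eosinophil gene, was at 2.14, 3.44 and 4.73 CPM. The late neutrophil sum did not have that order, at 223018, 224248.5 and 187565 CPM. Of its 11 markers 3 had it, Cxcr2 (a chemokine receptor of mature neutrophils, at 374, 462 and 667 CPM), Mmp8 and Mmp9, while 4 were highest in replicate 1. The part of these cell types in the receptor levels was not tested.

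**Figure D4:**
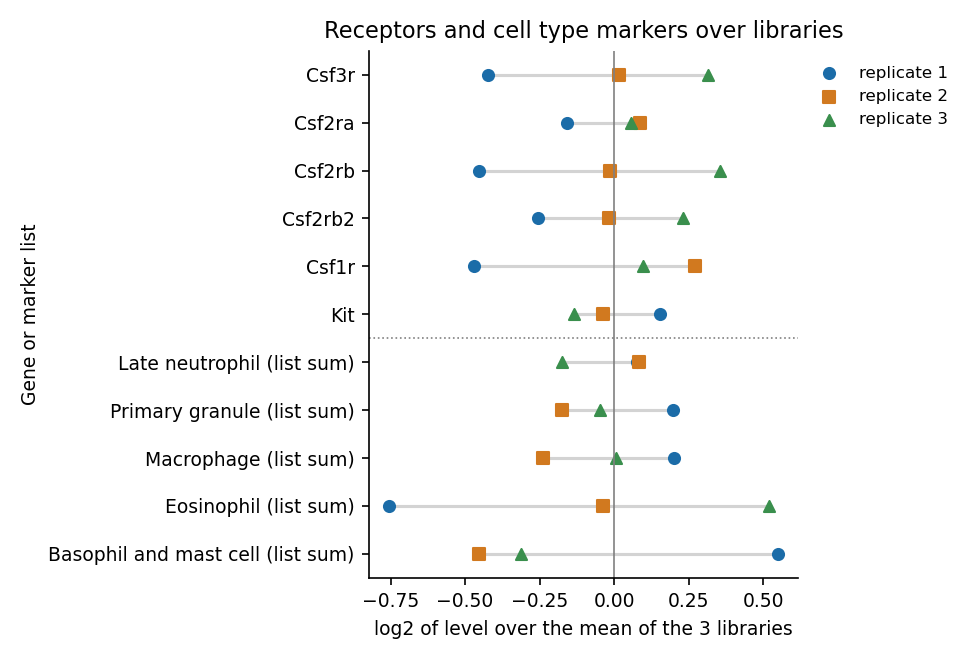
Log2 of the level in each library over the mean of the 3 libraries, for the receptor genes (above the dotted line) and the summed CPM of 5 marker lists (below it). In replicate 1 all receptor genes but Kit lie to the left of 0, with the eosinophil sum. Kit lies to the right, as do the late neutrophil, primary granule, macrophage, and basophil and mast cell sums.

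The ligands of these receptors were mostly outside the listed genes. Of 7 ligand genes only Csf1 and Kitl were listed; Csf3, Csf2, Il34, Il3 and Il5 were not, and their levels are unknown. Csf1, which encodes M-CSF, was at 18.1, 14.8 and 14.9 CPM (15.9 ± 1.84), above 10 CPM with a log2 difference of 0.62 (SE 0.19, limma adjusted p = 0.00486). Kitl, which encodes stem cell factor, had 1 read in replicate 1 and 0 in the others.

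Of 14 partner and other cytokine receptors, 13 were listed, 8 above and 5 below 10 CPM, with a median of 39.8 CPM. The share above, 61.5%, was near the 58.8% of all genes tested. Il3ra, the IL-3 alpha chain, was at 50.5, 38.0 and 30.9 CPM (39.8 ± 9.92), highest in replicate 1, where both beta chains were lowest. Per kb Csf2ra had 9.69 ± 2.96 times the level of Il3ra. Il5ra was below at 3.44 ± 1.30 CPM. Other receptors of early progenitors were also below: Flt3 at 3.68 ± 1.85, Epor, the erythropoietin receptor, at 1.49 ± 0.553, and Il7r, the IL-7 receptor of lymphoid progenitors, at 2.48 ± 2.16 CPM.

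Among receptors that share the JAK and STAT route, Il6ra was at 44.7, 66.9 and 81.2 CPM (64.2 ± 18.4), while its signalling partner Il6st was below 10 CPM at 0.356 ± 0.361. Il4ra, the IL-4 receptor, was above at 102 ± 20.1 CPM, and Il2rg, the common gamma chain, at 19.8 ± 2.13. The interferon receptors were above as well: Ifngr1 at 117 ± 19.4, Ifngr2 at 113 ± 14.6, Ifnar1 at 53.7 ± 9.27 and Ifnar2 at 69.4 ± 16.4 CPM.

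All 9 JAK and STAT genes were above 10 CPM, with a median of 75.9 CPM, against 58.8% of all genes tested above that level. Jak1 was at 338 ± 74.5 CPM, and the most abundant STAT genes were Stat3, the main STAT of the G-CSF receptor, at 278 ± 49.5 and Stat6 at 227 ± 31.7. Jak2, the kinase bound by the common beta chain, was at 59.6 ± 9.41, and the STAT5 genes that it activates were at 29.5 ± 4.23 (Stat5a) and 151 ± 20.3 (Stat5b). All 23 adaptors and kinases were above, with a median of 129 CPM, among them Mapk3 (ERK1, 628 ± 79.2), the Src family kinase Fgr (572 ± 38.2) and Syk (535 ± 82.1).

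Of 17 negative regulators 16 were listed, 10 above and 5 below 10 CPM, with a median of 38.1 CPM. The share above, 62.5%, was near the 58.8% of all genes tested. Ptpn6 (SHP-1), a phosphatase that damps cytokine receptors, was at 730 ± 60.3 CPM, Cbl, a ubiquitin ligase that acts on Kit and Csf1r, at 283 ± 64.6, and Inpp5d (SHIP1) at 248 ± 48.3. Spred1 (5.54 ± 3.24) and Cblb (5.78 ± 2.18) had the lowest means of the 5 below. That count fell to 2 with edgeR or DESeq2 on reads and without replicate 1 or replicate 2, and to 1 without the minimum on reads. Socs3, the inhibitor that G-CSF signalling induces through STAT3, was at 6.21, 13.6 and 26.4 CPM and was not called (limma adjusted p = 0.186). It was called above 10 CPM with edgeR on reads (adjusted p = 0.0196) and by limma without replicate 1 (adjusted p = 4.10e-05). Its range over the libraries was wide, with the lowest value in replicate 1, as for Csf3r. Of the 16 negative regulators listed, 11 were lowest in replicate 1, Socs3 among them, and 3 were highest there.

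Of 11 STAT response genes 9 (81.8%) were above and 2 below 10 CPM, with a median of 48.0 CPM. Among all genes tested, 58.8% were above and 28.3% below. Without replicate 2, 1 of the STAT response genes was below. Ccnd3, cyclin D3, was at 992 ± 110 CPM, Mcl1, a survival factor of neutrophils, at 325 ± 34.5 and Bcl6 at 105 ± 35.8. The kinase genes Pim2 (3.78 ± 1.73) and Pim3 (5.54 ± 0.233) were below.

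Of 20 transcription factors known to act on the receptor genes, 11 were above and 5 below 10 CPM, with a median of 42.5 CPM. Of the others, 3 were not called, and Egr2 was listed at 0 and not tested. The share above, 55%, was near the 58.8% of all genes tested. Spi1, which encodes PU.1, a regulator of the G-CSF, GM-CSF and M-CSF receptor genes, was at 789 ± 42.5 CPM. Cebpe and Cebpd, C/EBP factors of granulocytes, were at 648 ± 82.6 and 322 ± 28.2 CPM. Klf4, a factor of monocytes, had the lowest mean of those below, at 1.01 ± 0.325 CPM.

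A pair of factors gave no call and spread widely. Gata2, a factor of progenitors, basophils and mast cells that acts on Kit, was at 51.7, 10.7 and 2.90 CPM (limma adjusted p = 0.498). Its call depended on the setting: it was above 10 CPM with edgeR on reads (adjusted p = 0.0265) and by limma without replicate 3 (adjusted p = 1.44e-08), and below by limma without replicate 1 (adjusted p = 0.0174). Irf8, a factor of monocytes, was at 24.9, 10.01 and 7.39 CPM (limma adjusted p = 0.295), and was called above without replicate 3 (limma adjusted p = 0.00890). Both were highest in replicate 1 and lowest in replicate 3, the order of Kit, though over a much wider range. Cebpa, Cebpb and Klf4 had that order too, and 9 of the 20 factors were highest in replicate 1. The order is thus not particular to Gata2 and Irf8. Gata2, Irf8, Cebpa and Cebpb, like Socs3, were singled out after their values were seen.

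**Figure D5:**
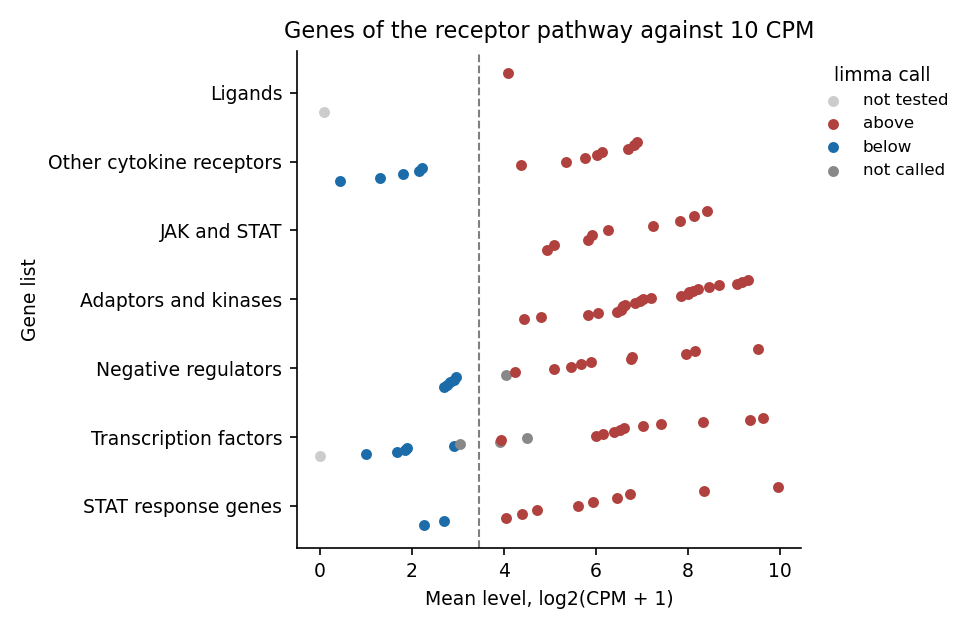
Mean level of each listed gene of the 7 pathway lists, as log2(CPM + 1), coloured by its limma call against 10 CPM (dashed line). All genes of the JAK and STAT list and of the adaptor and kinase list lie to the right of the line, and the other lists have genes on both sides.

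Promoter windows from RefSeq (GRCm38.p6, 250 bases before to 50 after the start) matched 4 of the 6 receptor genes: Csf3r, Csf2ra, Csf2rb2 and Kit. They were searched on both strands for the PU.1 letters GAGGAA, the C/EBP letters TTNCNNAA and the RUNX letters TGTGGT, which occur in 28.3%, 40.7% and 16.8% of all 32851 windows. Kit has 2 overlapping windows, of which the first is used here. Offsets are counted from the RefSeq start, which can differ from the GENCODE gene start given above. The Csf3r stretch below lies before its RefSeq start but inside the GENCODE gene, which starts at chr4:126024550. The letters GAGGAA were found for all 4 genes, TTNCNNAA for Csf2ra and Csf2rb2, and TGTGGT for none. In 30 bases around each match, on the strand of the gene, capitals mark GAGGAA or its reverse complement:
Csf3r, chr4:126024561-126024590, offset -86 from the start: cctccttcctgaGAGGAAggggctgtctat
Csf2ra, chr19:61228412-61228441, offset -14: cctgcagatGAGGAAGAGGAAgcgggagac
Csf2rb2, chr15:78305871-78305900, offset -167: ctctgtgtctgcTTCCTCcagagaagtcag
Csf2rb2, chr15:78305675-78305704, offset 29: ggcactggcaacTTCCTCaatctgctctct
Kit, chr5:75574752-75574781, offset -223: ggagagtgctagGAGGAAgaggatccaggg
Csf2ra holds the letters in tandem, and Csf2rb2 holds them on the reverse strand both before and after its start. A match of letters describes the window and does not show binding.

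For each receptor gene, the genes with the nearest profile were those with the smallest mean absolute difference of log2(CPM + 1) over the 3 libraries. Those of Csf3r were Actn1 (0.036) and Actr3 (0.13), both genes of the actin cytoskeleton. Those of Csf2ra were Nudt4 (0.016) and Pi16 (0.055), and those of Csf2rb were Svil (0.051) and Ripor2 (0.057). Zfp523 and Emc1 (0.027 each) were nearest to Csf2rb2, Zswim4 (0.028) and Tmem94 (0.048) to Csf1r, and Yeats4 (0.026) and Ssr2 (0.028) to Kit. The measure takes in level as well as pattern, and no receptor gene was allowed as a neighbour of another.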

How the data were processed

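The authors deposited CPM values (counts scaled to 1000000 assigned reads) in 1 table per library. Per the submitters' processing notes STAR, featureCounts, edgeR and FastQC were used and the builds mm10 and GRCh38 are named; versions, the annotation, the strand setting and the gene filter are not given in the sources used here. Of 11463 entries, 44 repeated a gene and were kept once. Each value was a whole multiple of 1 read within 0.01 reads in 100% of values, which gave the read totals.

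An intercept was fitted with limma 3.58.1 (R 4.3.3) to log2(CPM + 1), with a pseudocount of 1, and tested two-sided against 10 CPM, with trended moderation, in genes with at least 10 recovered reads, adjusted by Benjamini and Hochberg over 11123 genes; a difference on this scale understates that of low genes. It called 6539 genes above and 3153 below. With the recovered reads as input, edgeR 4.0.16 called 6660 and 2787, and DESeq2 1.42.0 called 6558 and 2939. The limma, edgeR and DESeq2 tests were each checked on simulated data in which every gene had the same spread between libraries. That spread was set below the common biological coefficient of variation of these data, 0.326. The check therefore does not show how the tests behave at the spread seen here. Levels per kb used the union exon length of GENCODE models on GRCm38 (99.9% of genes matched). Coding sequences were aligned with Biopython 1.88, and intervals came from SciPy 1.17.1.

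The receptor genes, the 7 pathway lists, the 12 marker lists and the tests were chosen with earlier results of these data known. Named genes were the receptor genes, the gate genes, all listed ligands and partner receptors, in each other list at most the 3 most abundant genes called above 10 CPM and the 2 least abundant called below, and the 2 nearest profiles of each receptor gene, leaving out numbered Gm and Rik genes. The values of 1 gene so chosen are not reported here. Genes named outside this rule were chosen after their values were seen. Alternatives were another pseudocount, no read minimum, levels of 5 and 20 CPM, other scalings, no variance trend, the count tests, other lengths and leaving out each library. Rescaling of the library order was added after seeing the data.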

Additional observations from a re-analysis of the deposited data

How the results depend on the processing

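Each of the 6 receptor genes kept its call above 10 CPM in all 12 alternatives. The log2 difference ranged over them from 5.38 to 7.19 for Csf3r, 4.08 to 5.88 for Csf2ra, 3.66 to 5.47 for Csf2rb, 0.57 to 2.37 for Csf2rb2, 1.39 to 3.19 for Csf1r and 1.66 to 3.47 for Kit, and the largest adjusted p was 0.0029, for Csf2rb2. Among neighbouring pairs in the order per kb, the direction changed only for Csf1r over Kit, to -0.12 with the longest transcript and -0.28 with no length. At a level of 5 CPM, 1870 genes were called below, and Cblb (0.13), Pim3 (0.12), Socs1 (0.31), Cish (0.14), Spry2 (0.28), Tal1 (0.14) and Egr1 (0.39) turned positive. At 20 CPM, Csf1 (-0.32), Il2rg (-0.020), C1qa (-0.16), Gata2 (-0.65), Irf8 (-0.65) and Socs3 (-0.56) turned negative; for these genes the level itself is what moved. Leaving out a library in turn gave -0.70 to 1.17 for Gata2, -0.19 to 0.62 for Irf8 and -0.10 to 0.86 for Socs3; Gata2 and Irf8 turned negative without replicate 1 and Socs3 without replicate 3, and each of them was called above 10 CPM in some alternatives. Replicate 1 had the fewest reads, so its intervals are the widest, and with 3 libraries no sign-flip p can go below 0.25. No paired analysis was possible because the series has 1 group.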
